A study of Mus musculus with 20 samples.

Results

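The 10 genes followed here set the G1 phase of the cell cycle, and were read in mouse liver: the D cyclins Ccnd1, Ccnd2 and Ccnd3, the E cyclins Ccne1 and Ccne2, the CIP/KIP inhibitors Cdkn1b and Cdkn1c, and the INK4 inhibitors Cdkn2a, Cdkn2b and Cdkn2c. They were taken by gene symbol from the deposited table, where all 10 were found among 38924 genes. Liver RNA of 20 male mice was sequenced after 12 weeks on 1 of 2 diets, with 5 mice in each of 4 groups. C57BL/6J mice on the control chow form the group NDWT, and TSP-1 knockout mice on the same chow form NDKO. CDAHFD is a high fat chow, used to produce steatohepatitis in mice, that lacks choline, holds little methionine and supplies protein as free amino acids. C57BL/6J mice on CDAHFD form HFWT, and TSP-1 knockout mice on CDAHFD form HFKO. The animals arrived aged 5 weeks, and feeding started a week later. The knockout is carried in the whole body from conception, so the groups do not separate TSP-1 made by one cell type from that made by another. The series description names the right medial lobe and the methods of the study the right lateral lobe.

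In G1, D cyclins bind the kinases CDK4 and CDK6 and E cyclins bind CDK2, and these complexes phosphorylate the retinoblastoma protein, which releases E2F factors that switch on S phase genes. INK4 proteins bind CDK4 and CDK6 directly and displace the D cyclins, whereas CIP/KIP proteins bind cyclin-CDK complexes as a whole. Adult hepatocytes are mostly quiescent, and cyclin D1 is the G1 cyclin best known for rising when they re-enter the cycle after partial hepatectomy or injury.

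Libraries held an estimated 15641543 to 23276347 fragments assigned to genes, and 3 fragments on a gene of 1 kb correspond to 0.129 to 0.192 FPKM (fragments per kilobase of gene, scaled to the library total, so levels below are per length). The summed level of 8 hepatocyte markers was 26300 to 45600 FPKM over the 20 libraries, with none at 0. Thbs1, which encodes TSP-1, went against the labels on the control diet: it lay at 0.058 to 0.326 FPKM in NDWT and at 0.986 to 1.895 FPKM in NDKO (log2FC 2.28, limma FDR 1.02e-05). On CDAHFD it lay at 3.46 to 6.099 FPKM in HFWT and 3.048 to 4.398 FPKM in HFKO (log2FC −0.39, limma FDR 0.408). The mitochondrial tRNA gene mt-Tg had 3 to 22 fragments in NDWT, 4 to 10 in HFWT and 0 in all 10 libraries labelled TSP-1 null, and mt-Tr had 4 to 14, 1 to 14 and 0 in the same libraries. Groups are called by their labels throughout, and every genotype direction below rests on those labels.

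The Cdkn2b, Cdkn2c, Cdkn1b and Ccne1 promoters are shown because their genes differed between the diets, and those of Cdkn2a, which was not tested, because its 2 starts cannot be told apart in the single gene value. RefSeq (GRCm38.p6) gave a window for 6 of the 10 genes, and 250 bases before the start are printed 5′ to 3′ on the strand of the gene. Ccnd1, Ccnd2, Ccne2 and Cdkn1c have no entry in that table. Capitals mark the word TTTCCCGC, one of the E2F words searched, and GGGCGG or its complement CCGCCC, the core of the SP factor box. The windows are chr4:89294620-89294869 and chr4:89282193-89282442 for the upstream and the downstream start of Cdkn2a, chr4:89311033-89311282 for Cdkn2b and chr4:109666757-109667006 for the first listed start of Cdkn2c, all on the minus strand. Those of Cdkn1b (chr6:134920151-134920400, plus strand) and Ccne1 (chr7:38107491-38107740, minus strand) follow.
Cdkn2a upstream start: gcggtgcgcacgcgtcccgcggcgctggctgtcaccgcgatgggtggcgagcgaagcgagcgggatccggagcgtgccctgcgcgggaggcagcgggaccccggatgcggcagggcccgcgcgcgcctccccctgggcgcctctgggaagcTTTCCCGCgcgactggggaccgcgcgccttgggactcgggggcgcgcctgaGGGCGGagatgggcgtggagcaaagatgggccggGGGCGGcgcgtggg
Cdkn2a downstream start: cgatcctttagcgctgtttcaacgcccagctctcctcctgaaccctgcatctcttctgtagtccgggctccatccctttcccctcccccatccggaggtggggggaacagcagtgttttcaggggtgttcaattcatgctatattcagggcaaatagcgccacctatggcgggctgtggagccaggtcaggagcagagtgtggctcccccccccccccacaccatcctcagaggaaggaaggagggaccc
Cdkn2b: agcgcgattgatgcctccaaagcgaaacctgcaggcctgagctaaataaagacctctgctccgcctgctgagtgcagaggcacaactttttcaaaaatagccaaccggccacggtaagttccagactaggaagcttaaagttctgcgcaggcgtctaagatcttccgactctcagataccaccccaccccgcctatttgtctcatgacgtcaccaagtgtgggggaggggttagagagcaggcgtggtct
Cdkn2c first start: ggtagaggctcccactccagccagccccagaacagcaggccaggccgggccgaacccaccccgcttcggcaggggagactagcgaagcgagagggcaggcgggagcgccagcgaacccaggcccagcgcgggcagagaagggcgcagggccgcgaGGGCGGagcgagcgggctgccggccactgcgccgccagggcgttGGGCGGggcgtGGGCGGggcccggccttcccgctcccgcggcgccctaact
Cdkn1b: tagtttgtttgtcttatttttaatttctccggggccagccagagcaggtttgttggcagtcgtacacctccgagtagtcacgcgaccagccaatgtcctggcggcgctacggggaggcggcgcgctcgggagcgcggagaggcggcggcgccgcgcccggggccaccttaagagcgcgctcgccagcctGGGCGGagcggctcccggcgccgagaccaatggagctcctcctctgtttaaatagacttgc
Ccne1: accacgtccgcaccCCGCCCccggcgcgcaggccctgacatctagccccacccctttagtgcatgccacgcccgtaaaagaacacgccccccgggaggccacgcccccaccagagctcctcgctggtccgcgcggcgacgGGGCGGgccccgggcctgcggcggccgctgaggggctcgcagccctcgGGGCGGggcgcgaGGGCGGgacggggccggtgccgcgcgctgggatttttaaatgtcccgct
Of the words TTTCCCGC, TTTGGCGC, TTTCGCGC and TTTGCCGC, searched on both strands, 1 match was found in the 9 windows of the 6 genes, the TTTCCCGC at 99 to 92 bases before the upstream start of Cdkn2a, from which the ARF transcript begins. At least 1 of the 4 words lies in 1.86% of the 32851 windows in the table. GGGCGG lay 2 times before that start, 3 times before the first Cdkn2c start, 4 times before Ccne1, 1 time before Cdkn1b and 0 times before Cdkn2b and the downstream Cdkn2a start, against 32.7% of all windows with at least 1. In the windows not printed it lay 2 and 1 times before the 2 Ccnd3 starts and 0 times before the second Cdkn2c start. The AP-1 word TGANTCA, which 6.75% of all windows hold, was in none of the 9. The upstream Cdkn2a window held 40 CpG dinucleotides, as many as or more than 98.9% of windows, whereas the downstream window held 7 and the Cdkn2b window 12. These matches describe the letters only, and no binding was measured.

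**Figure D1:**
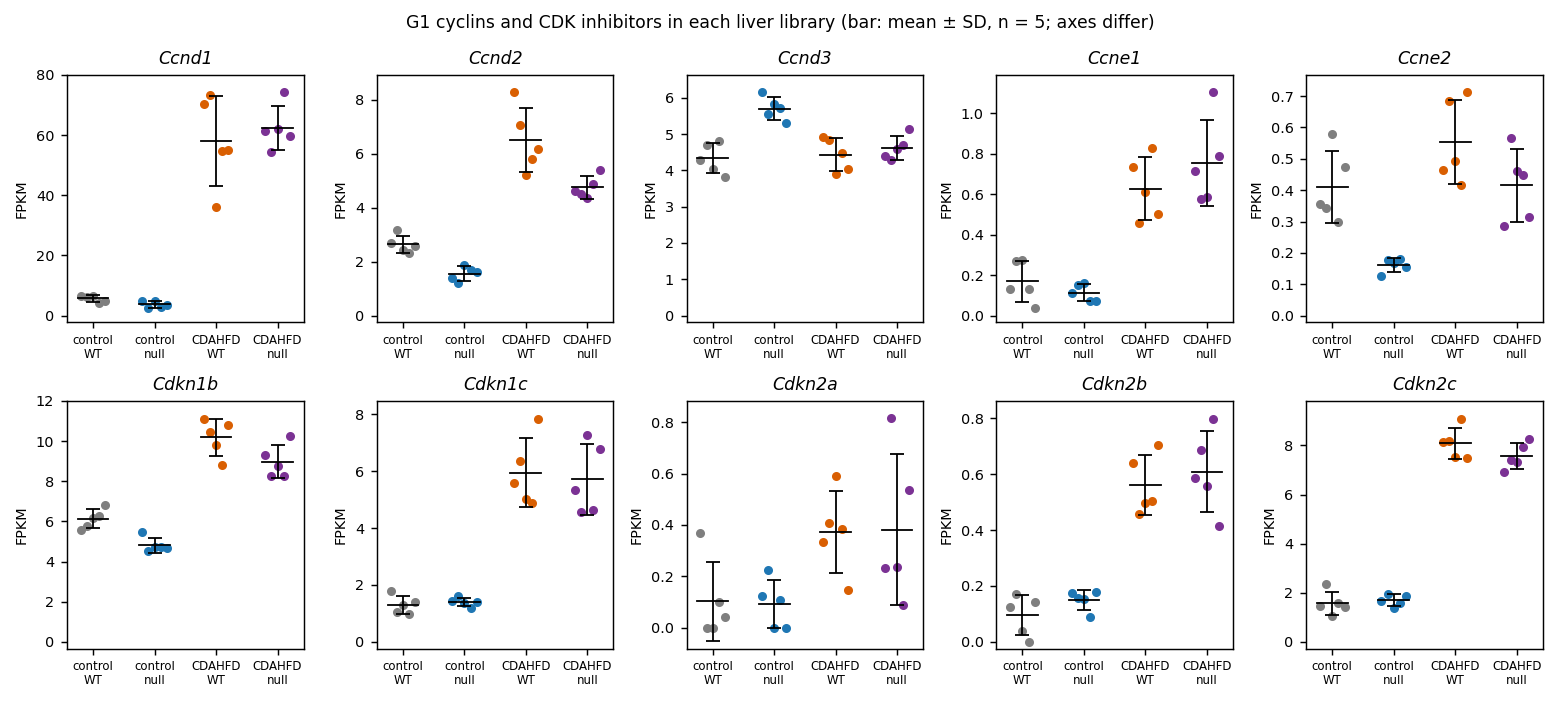
Level (FPKM, y axis, each panel with its own scale) of the 10 genes in the 20 libraries. Points are libraries, horizontal bars are group means and whiskers are SD (n = 5). Ccnd1 stands at 35.95 to 74.187 FPKM in the CDAHFD libraries and at 2.594 to 6.621 FPKM in the control diet libraries, while the Ccnd3 panel shows NDKO above the other groups.

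Cyclin D1 had the widest diet difference of the genes. Ccnd1 (ENSMUSG00000070348.4, GRCm38 chromosome 7, 144929931 to 144939869, minus strand) was at 6.621, 6.265, 6.343, 4.239 and 4.888 FPKM in NDWT libraries 1 to 5 and at 4.725, 2.594, 4.965, 2.92 and 3.353 FPKM in NDKO. On CDAHFD it was at 70.354, 73.354, 35.95, 54.824 and 55.046 FPKM in HFWT and at 61.471, 54.413, 62.014, 74.187 and 59.794 FPKM in HFKO. The lowest CDAHFD library, HFWT library 3, was more than 5-fold above the highest control diet library. In these bulk samples more cells of a type and more RNA per cell cannot be told apart. The rise with diet was 9.89-fold in WT mice (log2FC 3.31, SE 0.193, limma FDR 2.38e-11) and 16.8-fold in TSP-1 null mice (log2FC 4.07, SE 0.193, limma FDR 3e-12), with fold changes here and below taken on the log2(FPKM + 0.1) scale. These values rank above 98.1% and 99.5% of the tested genes. The 3′ end overlaps LTO1 on the opposite strand over 1100 of 4709 annotated exon bases. That gene, listed as Oraov1, had group means of 3.28 to 4.49 FPKM. Its lowest was in NDKO (3.28 ± 0.628 FPKM, against 4.18 ± 0.566 in NDWT, SD, n = 5), and its part in the Ccnd1 values was not tested. The library kit keeps the strand, but the strand setting used in counting is not given in the sources used here.

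Cyclin D2, the D cyclin best known from lymphoid and ovarian cells, followed the same diet direction at a smaller size. Ccnd2 (ENSMUSG00000000184.9, chromosome 6, 127125779 to 127151048, minus strand) was at 2.683, 3.174, 2.444, 2.331 and 2.576 FPKM in NDWT and at 1.377, 1.189, 1.886, 1.69 and 1.614 FPKM in NDKO. In HFWT it was at 8.274, 7.074, 5.209, 5.804 and 6.17 FPKM, and in HFKO at 4.608, 4.497, 4.349, 4.89 and 5.403 FPKM. The 2 diets did not overlap in either genotype, nor did the 2 control diet groups, whereas HFWT and HFKO shared the range from 5.209 to 5.403 FPKM. The diet difference was 2.39-fold in WT mice (log2FC 1.26, SE 0.127, limma FDR 3.93e-08) and 2.96-fold in the null mice (log2FC 1.57, limma FDR 2.38e-09). The antisense genes Gm43126 and 9330179D12Rik overlap Ccnd2 over 372 and 368 of 9409 exon bases. Group means of 9330179D12Rik were at most 0.164 FPKM, and Gm43126 was not analysed here.

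Cyclin D3 did not share that pattern. Ccnd3 (ENSMUSG00000034165.10, chromosome 17, 47505051 to 47599691, plus strand) was at 4.294, 4.712, 4.053, 4.801 and 3.822 FPKM in NDWT, and at 6.151, 5.542, 5.821, 5.718 and 5.299 FPKM in NDKO. On CDAHFD it was at 4.912, 4.826, 3.901, 4.49 and 4.048 FPKM in HFWT and at 4.387, 4.277, 4.58, 4.688 and 5.131 FPKM in HFKO. All 5 NDKO libraries lay above all libraries of the other groups. Between the diets the log2FC was 0.03 in WT mice (95% interval −0.14 to 0.20, limma FDR 0.738) and −0.30 in the null mice (SE 0.081, limma FDR 0.00248, short of the fold threshold). Ccnd3 shares 294 of its 9167 31-base words with the processed pseudogene Ccnd3-ps, whose group means were at most 0.0768 FPKM, and it overlaps Bysl on the opposite strand over 361 of 8775 exon bases. In all, 140 other genes share 20 or more of these words with Ccnd3, on either strand, and their part in its values was not tested.

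The make-up of the D cyclin transcripts therefore differed by diet. Ccnd1 gave 37.3% to 49.4% of the summed D cyclin FPKM in NDWT libraries and 27.8% to 39.2% in NDKO, against 79.8% to 86.0% in HFWT and 85.0% to 88.6% in HFKO. Ccnd3 was the largest share in NDKO (mean 52.5% ± 5.13, SD, n = 5) and gave 6.66% ± 1.21 in HFWT and 6.47% ± 0.631 in HFKO (SD, n = 5). The summed level of the 3 genes was 12.6 ± 1.29 FPKM in NDWT against 11.0 ± 1.43 in NDKO, and on CDAHFD 68.8 ± 16.4 in HFWT against 71.7 ± 7.45 in HFKO (SD, n = 5).

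**Figure D2:**
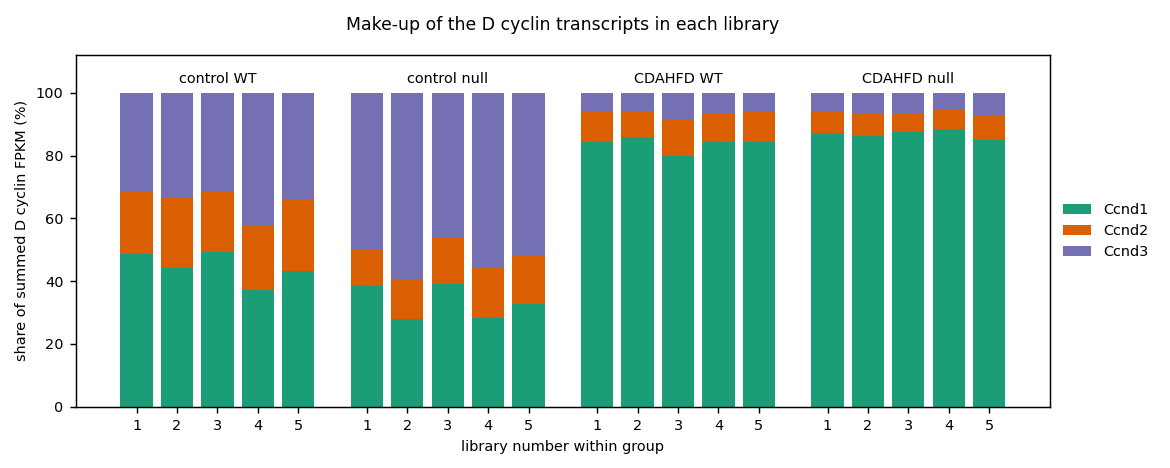
Share of Ccnd1, Ccnd2 and Ccnd3 (stacked bars, percent of their summed FPKM) in each of the 20 libraries, grouped by diet and genotype label. Ccnd1 fills 79.8% or more of every CDAHFD bar and at most 49.4% of every control diet bar.

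The E cyclins, which activate CDK2 at the end of G1, were scarce. Ccne1 (ENSMUSG00000002068.10, chromosome 7, 38097984 to 38107534, minus strand) was at 0.129, 0.27, 0.274, 0.131 and 0.038 FPKM in NDWT and at 0.109, 0.149, 0.161, 0.071 and 0.074 FPKM in NDKO, from 2 to 13 fragments a library. In HFWT it was at 0.733, 0.459, 0.611, 0.829 and 0.5 FPKM, and in HFKO at 0.715, 0.576, 0.585, 1.102 and 0.788 FPKM, from 23 to 58 fragments. The diets did not overlap, with a difference of 2.83-fold in WT mice (SE of the log2FC 0.268, limma FDR 5.14e-05) and 3.98-fold in the null mice (limma FDR 1.98e-06). Ccne1 passed the filter of 0.5 FPKM in at least 5 libraries with 8 libraries, all on CDAHFD, so a gene that passed in this way had to differ between the diets. The WT difference was lost under quantile normalization (log2FC 0.07, limma FDR 0.837), where that of the null mice was 0.70 (limma FDR 0.0333).

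Ccne2 (ENSMUSG00000028212.10, chromosome 4, 11191351 to 11204779, plus strand) exceeded 0.5 FPKM in 4 libraries and was not tested. It was at 0.356, 0.343, 0.579, 0.3 and 0.473 FPKM in NDWT and at 0.125, 0.176, 0.168, 0.179 and 0.156 FPKM in NDKO, with 9 to 14 fragments in each NDKO library. On CDAHFD it was at 0.463, 0.683, 0.494, 0.416 and 0.712 FPKM in HFWT and at 0.285, 0.567, 0.461, 0.449 and 0.315 FPKM in HFKO. The NDKO libraries were below all others, and NDWT overlapped both CDAHFD groups. The gene overlaps Ints8 on the opposite strand over 609 of 3495 exon bases, and Ints8 itself had its lowest group mean in NDKO (1.49 ± 0.202 FPKM, against 2.12 ± 0.231 in NDWT, SD, n = 5); its part in the Ccne2 values was not tested.

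Among the CIP/KIP inhibitors, Cdkn1b, which encodes p27 and is abundant in resting cells, was higher on CDAHFD by less than 2-fold. Cdkn1b (ENSMUSG00000003031.8, chromosome 6, 134920401 to 134925513, plus strand) was at 5.597, 5.752, 6.195, 6.286 and 6.805 FPKM in NDWT and at 5.46, 4.525, 4.711, 4.714 and 4.673 FPKM in NDKO. It was at 11.098, 10.469, 9.807, 8.788 and 10.815 FPKM in HFWT and at 9.313, 8.272, 8.769, 8.281 and 10.271 FPKM in HFKO. All 10 CDAHFD libraries exceeded all 10 control diet libraries. The diet difference was 1.65-fold in WT mice (log2FC 0.72, SE 0.08, limma FDR 1.36e-07) and 1.84-fold in the null mice (log2FC 0.88, limma FDR 1.07e-08).

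Cdkn1c, which encodes p57 and is an imprinted gene expressed from the maternal allele, rose further. Cdkn1c (ENSMUSG00000037664.6, chromosome 7, 143458350 to 143461050, minus strand) was at 1.78, 1.055, 1.309, 0.996 and 1.402 FPKM in NDWT and at 1.43, 1.618, 1.357, 1.199 and 1.409 FPKM in NDKO. On CDAHFD it was at 5.602, 6.348, 5.032, 4.881 and 7.849 FPKM in HFWT and at 5.348, 4.569, 7.284, 4.638 and 6.794 FPKM in HFKO. The diets did not overlap and the genotypes did. The diet difference was 4.31-fold in WT mice (log2FC 2.11, SE 0.162, limma FDR 9.91e-10) and 3.82-fold in the null mice (log2FC 1.94, limma FDR 3.96e-09). An antisense gene, Gm44732, overlaps 625 of 2039 exon bases of Cdkn1c and was not analysed here.

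Of the 3 INK4 genes followed here, Cdkn2c, which encodes p18, was the most abundant, and it had the second widest diet difference of the 8 tested genes in WT mice. Cdkn2c (ENSMUSG00000028551.8, chromosome 4, 109660876 to 109667189, minus strand) was at 1.44, 2.342, 1.067, 1.584 and 1.437 FPKM in NDWT and at 1.678, 1.966, 1.374, 1.584 and 1.878 FPKM in NDKO. In HFWT it was at 8.137, 8.16, 7.548, 9.089 and 7.495 FPKM and in HFKO at 6.913, 7.402, 7.306, 7.931 and 8.264 FPKM. Every CDAHFD library exceeded the highest control diet library, NDWT library 2, by more than 2-fold. The diet difference was 5.02-fold in WT mice (log2FC 2.33, SE 0.139, limma FDR 3.12e-11) and 4.29-fold in the null mice (log2FC 2.10, limma FDR 1.64e-10).

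Cdkn2b, which encodes p15 and is a known target of TGF-β signalling, was low throughout. Cdkn2b (ENSMUSG00000073802.4, chromosome 4, 89306289 to 89311032, minus strand) was at 0.123, 0.172, 0.04, 0 and 0.144 FPKM in NDWT and at 0.174, 0.158, 0.154, 0.09 and 0.178 FPKM in NDKO, from 0 to 5 fragments a library. It was at 0.64, 0.457, 0.496, 0.504 and 0.706 FPKM in HFWT and at 0.585, 0.688, 0.559, 0.799 and 0.414 FPKM in HFKO, from 11 to 22 fragments. The diets did not overlap, with a log2FC of 1.84 in WT mice (SE 0.261, limma FDR 3.58e-06) and 1.49 in the null mice (limma FDR 4.54e-05). Like Ccne1, it passed the filter only through CDAHFD libraries, 7 in number.

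Cdkn2a, its neighbour on the same strand (ENSMUSG00000044303.6, chromosome 4, 89274471 to 89294653), encodes both p16 and, from the upstream start, ARF, an inhibitor of MDM2. It exceeded 0.5 FPKM in 3 libraries and was not tested. The level was 0.367, 0, 0, 0.099 and 0.043 FPKM in NDWT and 0.124, 0.225, 0, 0.107 and 0 FPKM in NDKO. On CDAHFD it was 0.333, 0.408, 0.589, 0.385 and 0.148 FPKM in HFWT and 0.232, 0.818, 0.237, 0.086 and 0.537 FPKM in HFKO. Both diets overlapped, with 0 to 10 fragments a library in NDWT and NDKO and 2 to 15 in HFWT and HFKO, and these counts could not show a difference in which transcript was used.

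Counted together, 7 of the 8 tested genes were called higher on CDAHFD in WT mice and 7 of 8 in TSP-1 null mice, where a call needs a limma FDR under 0.05 and an absolute log2FC above 0.58. These counts, and those of groups without overlap, include Ccne1 and Cdkn2b, whose rise the filter fixed, and of the 6 other tested genes 5 were called higher in each genotype. Of all 14524 tested genes, 44.1% were called higher in WT mice (48.8% in either direction) and 41.9% in the null mice (45.9% in either direction), and 1185 of them likewise had no control diet library above 0.5 FPKM. The median log2FC of the tested members was 1.67 in WT mice and 1.75 in the null mice, beside 0.53 and 0.50 over all tested genes, and both medians include the 2 genes that passed only through CDAHFD. The groups did not overlap for 7 of 8 genes in WT mice and 8 of 8 in the null mice, Ccnd3 being lower on CDAHFD in the latter, against 56.2% and 57.8% of all tested genes. Both diet comparisons use different mice, but within a genotype each shares its libraries with the genotype comparisons below.

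Without the filter all 10 genes were tested, and 8 of 10 were called in WT mice and 9 of 10 in the null mice, against 35.5% and 32.2% of all genes. Cdkn2a was then called in both genotypes (log2FC 1.42, limma FDR 0.018 in WT, and 1.27, limma FDR 0.0353 in TSP-1 null mice), although its groups overlapped. Ccne2 was called in TSP-1 null mice (log2FC 0.96, limma FDR 3.47e-04) and not in WT (log2FC 0.36, limma FDR 0.134).

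**Figure D3:**
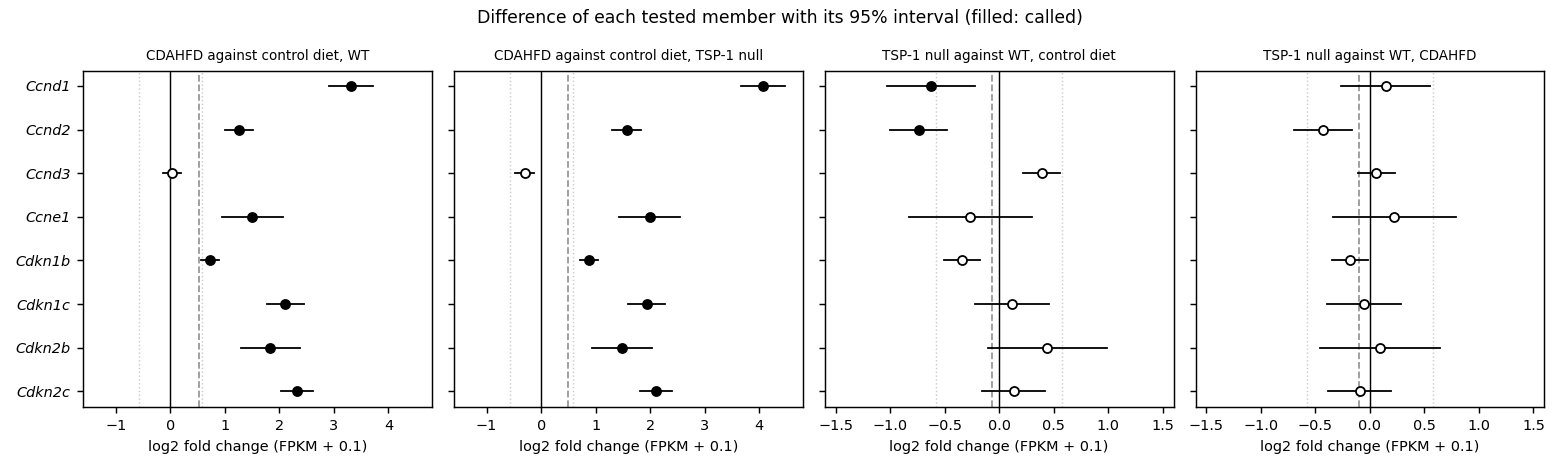
Difference of the 8 tested genes in the 4 comparisons (x axis, log2 fold change of FPKM + 0.1, points with 95% intervals; the x ranges differ between diet and genotype panels). Filled points were called, the dashed line is the median of all tested genes and dotted lines mark the fold threshold of 0.58. In the diet panels Ccnd3 alone is not called, and in the genotype panels Ccnd1 and Ccnd2 are called on the control diet.

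Diet sizes depended on how libraries were scaled. Under median of ratios scaling the median of all tested genes moved from 0.53 to −0.01 in WT mice and from 0.50 to −0.01 in the null mice, and the log2FC of Ccnd3 became −0.52 in WT mice and −0.83 in the null mice (limma FDR 6.61e-06 and 1.82e-08). Under quantile normalization it became −0.65 and −0.90 (limma FDR 4.93e-07 and 8.98e-09), so Ccnd3 was called lower in both genotypes under quantile normalization and in TSP-1 null mice under median of ratios. Cdkn1b fell short of the fold threshold under both scalings, at 0.17 and 0.19 in WT mice and at 0.36 and 0.33 in the null mice. Ccne1 in WT mice and Cdkn2b in both genotypes were not called under quantile normalization. The number of tested members called higher in WT mice went from 7 to 6 under median of ratios and to 4 under quantile normalization, while the share of all tested genes called higher went from 44.1% to 22.7% and 17.3%. In the null mice it went from 7 to 6 and 5 members, and from 41.9% to 22.2% and 16.7% of all tested genes. Ccnd1, Ccnd2, Cdkn1c and Cdkn2c were called higher in both genotypes under every scaling tried, with Ccnd2 in WT the closest to the threshold at 0.59 under quantile normalization.

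**Figure D4:**
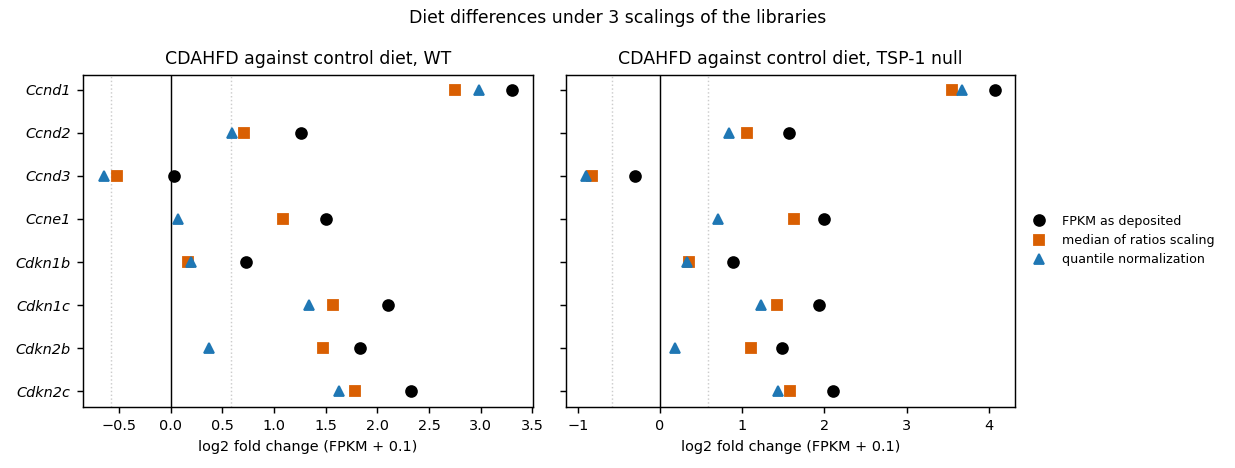
Diet difference (x axis, log2 fold change of FPKM + 0.1) of the 8 tested genes in WT and TSP-1 null mice under 3 scalings of the libraries: FPKM as deposited, median of ratios and quantile normalization. Both alternatives shift the points to the left, and Ccnd3 moves from 0.03 to −0.52 and −0.65 in WT.

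On the control diet, the comparison of TSP-1 null with WT mice asks whether the genotype label is accompanied by other levels of these genes without CDAHFD. The paper lists the knockout mice as a purchased stock and does not call them littermates of the WT mice. Any other difference between the stocks would go with the label, as the mt-Tg and mt-Tr fragments did, and its part was not tested. Between these groups 2 of 8 tested genes were called, both lower, against 4.77% of all tested genes called and 3.03% called lower. Ccnd2 fell by 0.74 on the log2 scale (SE 0.127, limma FDR 0.00109), and its 5 NDKO libraries were all below the 5 NDWT libraries. Ccnd1 fell by 0.62 (SE 0.193, limma FDR 0.039), with NDKO libraries 1 and 3 inside the NDWT range. That call was lost without NDWT library 1, 2 or 3 or NDKO library 2, 4 or 5 (limma FDR 0.0652 to 0.096) and in 7 of the other alternatives, which include both other scalings, the fit of these 2 groups alone (limma FDR 0.0792) and the fit to recovered fragments (limma FDR 0.0507).

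A further pair, Ccnd3 and Cdkn1b, did not overlap between the control diet groups but missed the fold threshold. Ccnd3 was higher in NDKO (log2FC 0.39, SE 0.081, limma FDR 0.00379) and Cdkn1b was lower (log2FC −0.34, SE 0.08, limma FDR 0.00843). With Ccnd2, 3 of 8 tested genes did not overlap, against 9.03% of all tested genes. For Ccne1, Cdkn1c, Cdkn2b and Cdkn2c the limma FDR was between 0.295 and 0.70, with intervals from −0.83 to 0.30 for Ccne1 and from −0.11 to 0.99 for Cdkn2b. Without the filter, where 2.5% of all genes were called, Ccne2 was called lower in NDKO (log2FC −0.95, limma FDR 0.0065), and Ccnd1 was not called (limma FDR 0.0706).

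On CDAHFD, 0 of 8 genes were called by limma between TSP-1 null and WT mice, against 0.496% of all tested genes, and 0 by limma voom on recovered fragments. An unadjusted p below 0.05 was reached by 2 genes, Ccnd2 and Cdkn1b, both with lower values in HFKO. The log2FC of Ccnd2 was −0.43 (95% interval −0.70 to −0.17, limma FDR 0.0995) and that of Cdkn1b −0.18 (95% interval −0.35 to −0.01, limma FDR 0.254). For Ccnd1 the interval ran from −0.26 to 0.55 and for Cdkn2c from −0.39 to 0.20, so neither interval shows equal levels. The groups overlapped for all 8 genes, against 4.98% of all tested genes without overlap.

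The interaction, which subtracts the genotype difference on control chow from that on CDAHFD, gave 0 calls of 8 by limma, against 0.647% of all tested genes, and 0 by limma voom. Unadjusted p-values below 0.05 were found for 2 genes. Ccnd1 had an interaction of 0.77 on the log2 scale (95% interval 0.20 to 1.34, limma FDR 0.183), and Ccnd3 one of −0.33 (95% interval −0.57 to −0.09, limma FDR 0.166). A different diet response in the 2 genotypes was therefore not shown for any tested member.

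By level, the order of the genes differed between diets. In NDWT, Cdkn1b, Ccnd1 and Ccnd3 stood first at means of 6.13 ± 0.477, 5.67 ± 1.05 and 4.34 ± 0.419 FPKM (SD, n = 5), and neighbours in that order overlapped. In NDKO, Ccnd3 stood first at 5.71 ± 0.318 FPKM, above Cdkn1b at 4.82 ± 0.368 in all 5 libraries, although the ranges of the 2 genes overlapped. On CDAHFD, Ccnd1 stood first in all 10 libraries, 5.68-fold above Cdkn1b by mean in HFWT and 6.95-fold in HFKO, with ranges apart. A second gap lay between Ccnd3 and Ccne1, of 7.08-fold in HFWT and 6.12-fold in HFKO, below which Ccne1, Cdkn2b, Ccne2 and Cdkn2a had overlapping ranges between neighbours in both groups.

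The kinases, pocket proteins and E2F factors on which these genes act moved in part. Of 22 tested genes in a list of G1 kinases and the RB-E2F axis, 14 rose and 1 fell on CDAHFD in WT mice, and 10 rose and 1 fell in TSP-1 null mice, with medians of 0.66 and 0.61. The shares of all tested genes called higher were 44.1% and 41.9% and their medians 0.53 and 0.50, so the count in the null mice was near that of all genes. Myc (log2FC 2.54), Rbl1, which encodes the pocket protein p107 (1.99), E2f2 (2.13) and Tfdp1, the partner of E2F proteins (0.66), had the lowest FDR in WT mice. Rbl1 and E2f2 had no control diet library above 0.5 FPKM, so that their rise was fixed by the filter, as for Ccne1. In TSP-1 null mice they were Rbl1 (2.14), E2f2 (2.26), the CDK phosphatase Cdc25a (1.80) and Tfdp1 (0.75). Without Rbl1 and E2f2, 12 of 20 genes were called higher in WT mice and 8 of 20 in the null mice. The gene that fell in both was E2f8, an atypical repressive E2F (log2FC −1.67, limma FDR 3.04e-04 in WT mice, and −1.55, limma FDR 6.34e-04 in TSP-1 null mice), chosen after its values were seen.

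On the control diet 4 of the 22 genes were called between genotypes, against 4.77% of all tested genes. Myc (log2FC 1.20, limma FDR 0.00152) and Cdkn1a, which encodes the CIP/KIP inhibitor p21 (1.55, limma FDR 0.00602), were higher in NDKO. Cdc25a (−0.70, limma FDR 0.00675) and E2f1 (−0.72, limma FDR 0.00953) were lower. Cdkn1a averaged 2.92 ± 1.43 FPKM in NDWT against 8.48 ± 3.96 in NDKO, and on CDAHFD 19.4 ± 4.64 in HFWT against 13.8 ± 4.05 in HFKO (SD, n = 5), and its NDWT and NDKO libraries overlapped. None of the 22 was called between genotypes on CDAHFD or in the interaction by limma. The interaction of Cdkn1a was at the limit (log2FC −2.06, SE 0.485, limma FDR 0.05 as rounded), and that of Myc was −1.105 (limma FDR 0.0809). With diet, Cdkn1a was called higher in WT mice (log2FC 2.82, limma FDR 5e-07) and not called in the null mice (log2FC 0.76, limma FDR 0.0553).

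The next list holds genes that turn over cyclins and inhibitors. Of 11 tested, 4 rose and 1 fell on CDAHFD in each genotype, with medians of 0.49 and 0.45, so neither its count nor its medians exceeded the 44.1% and 41.9% called higher and the medians of 0.53 and 0.50 over all tested genes. The one that fell in both was Fbxo31, a ubiquitin ligase subunit known to act on cyclin D1 (log2FC −1.09, limma FDR 5.07e-07 in WT mice, and −1.14, limma FDR 2.83e-07 in TSP-1 null mice). It was also the only gene of this list called between genotypes, higher in TSP-1 null mice on the control diet (log2FC 0.64, limma FDR 0.00384) and on CDAHFD (log2FC 0.58, limma FDR 0.0374). Cks1b (log2FC 1.32 in WT mice and 1.05 in the null mice), a cofactor of the p27 ligase, Fbxw7 (0.59 and 0.81), which acts on cyclin E, and Trim21 (0.69 and 0.65) were among those that rose. Skp2 also rose, but it had 0 control diet libraries above 0.5 FPKM, so that its rise was fixed by the filter. Of the 10 other genes tested in this list, 3 were called higher in each genotype. Of 12 polycomb genes, which encode repressors known to act at the Cdkn2a-Cdkn2b locus, 4 rose in WT mice (Ezh1 0.92, Kdm2b 0.95, Cbx7 1.03 and Ezh2 1.27) and 3 in the null mice (among them Kdm2b 0.93 and Ezh2 1.12), with medians of 0.48 and 0.44 that lay below those of all tested genes.

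Genes of S phase and mitosis rose in all 18 tested cases in each genotype, with median log2FC of 2.00 in WT mice and 2.63 in the null mice. Of all tested genes 44.1% and 41.9% were called higher, with medians of 0.53 and 0.50. For 7 of the 18, among them Mki67, Cdk1 and Top2a, no control diet library exceeded 0.5 FPKM, so that their rise was fixed by the filter. In a further pair, Ccnb2 and Mcm5, fewer than 5 control diet libraries did, so that they passed only with the CDAHFD libraries. The other 9 were called higher in both genotypes, Pcna, Mcm2 and Mcm6 among them. Examples are Pcna, the replication clamp (log2FC 1.43 and 1.19), Mcm2 (1.92 and 2.62) and Mcm6 (2.48 and 2.72) of the replicative helicase, and Mki67, which marks cycling cells (2.58 and 3.27). In NDKO 5 of the 18 were called lower than in NDWT, against 3.03% of all tested genes: Pcna (−0.64), Mcm2 (−0.92), Mcm4 (−0.59), Aurkb (−1.05) and Mcm5 (−0.76), with a median of −0.57 over the 18. Aurkb was low, at 0.195 ± 0.0712 FPKM in NDWT and 0.0466 ± 0.0504 in NDKO, with 0 control diet libraries above 0.5 FPKM. Mcm5 was at 0.549 ± 0.161 and 0.286 ± 0.107 FPKM (SD, n = 5), with 3 control diet libraries above it. Of the 18 genes in this median, 9 passed the filter only with the CDAHFD libraries. On CDAHFD Pcna was the only one called, lower in HFKO (log2FC −0.89, limma FDR 4.71e-07), at 12.7 ± 1.81 against 23.4 ± 0.632 FPKM (SD, n = 5).

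**Figure D5:**
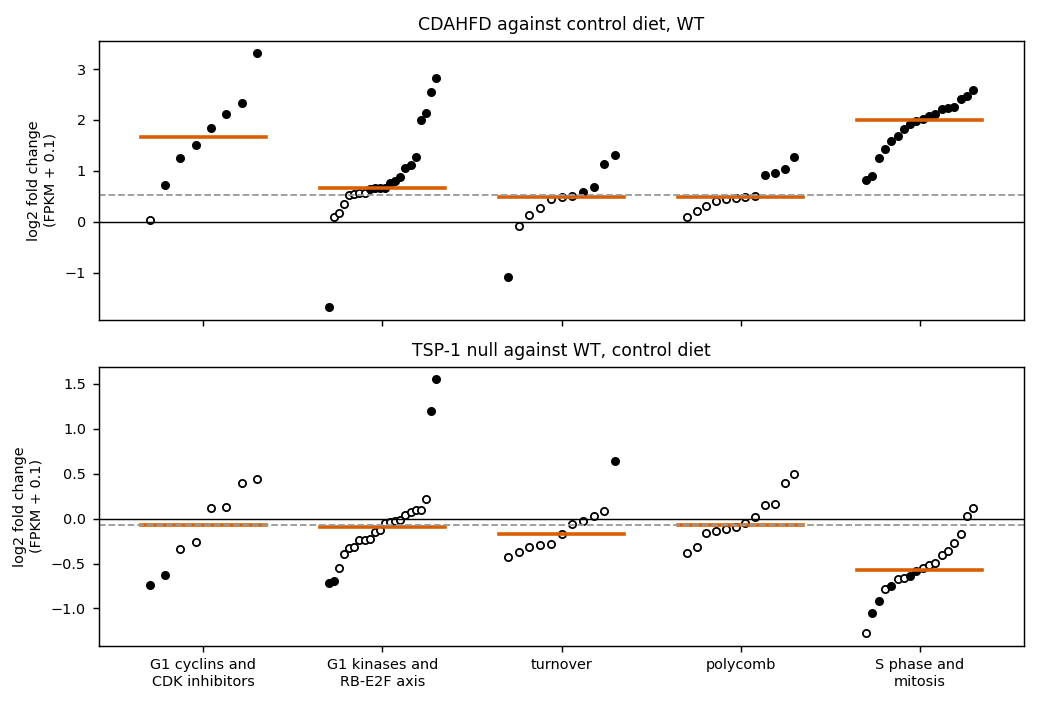
log2 fold change of FPKM + 0.1 (y axis) of every tested gene of 5 lists, ordered by value within a list, for CDAHFD against control diet in WT mice and for TSP-1 null against WT on the control diet. Filled points were called, orange bars are list medians and the dashed line is the median of all tested genes. The S phase and mitosis genes all lie above 0 in the diet panel, with a median of 2.00 that includes 7 genes whose rise the filter fixed, and have a median of −0.57 in the genotype panel. Of these 18 genes, 9 passed the filter only with the CDAHFD libraries.

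Markers of cell types other than hepatocytes moved with diet beside these genes, and their part in the results was not tested. The summed level of 7 macrophage markers was 165 to 282 FPKM in control diet livers and 610 to 1330 FPKM in CDAHFD livers. None was at 0. Of the 7, 5 were called higher in WT mice and 6 in the null mice, against 44.1% and 41.9% of all tested genes. Itgam and Trem2, with 0 and 1 control diet libraries above 0.5 FPKM, passed the filter only with the CDAHFD libraries. Of the 5 others, 3 were called higher in WT mice and 4 in the null mice. The Kupffer cell marker Clec4f was called lower in both genotypes (log2FC −1.22, limma FDR 6.96e-06 in WT mice, and −0.77, limma FDR 9.11e-04 in the null mice). Cd5l of the same list went the other way. It was called higher in the null mice (log2FC 0.70, limma FDR 0.0142) and not called in WT mice (log2FC 0.34, limma FDR 0.205). The 8 cholangiocyte markers summed to 12.5 to 18.1 FPKM in control diet livers and to 184 to 494 FPKM in CDAHFD livers, mostly from Spp1. The 8 stellate cell and myofibroblast markers summed to 30.8 to 46.4 and 130 to 292 FPKM, and 8 T cell markers to 2.26 to 8.15 and 5.77 to 27.3 FPKM. The 6 B cell markers summed to 4.06 to 17.8 and 13.3 to 27.5 FPKM and the 6 neutrophil markers to 1.92 to 6.13 and 17.3 to 40.5 FPKM, with Ly6g at 0 in all libraries of NDWT and HFWT. Endothelial markers (53.6 to 71.7 and 61.0 to 101 FPKM), erythroid markers (126 to 339 and 104 to 221 FPKM) and the sums of the T cell, B cell and hepatocyte markers overlapped between diets. Albumin dominates the hepatocyte sum. Of the 8 hepatocyte markers 2 were called lower in WT mice and 3 in the null mice, against 4.62% and 4% of all tested genes. Their medians were −0.28 and −0.44, beside 0.53 and 0.50 over all tested genes. Those called lower were Apoc3 (log2FC −0.75 and −0.76) and Tat (−0.73 and −1.07) in both and Cps1 in the null mice (−0.85). The diets did not overlap for Apoc3 and Asgr1 in either genotype. Between genotypes on the control diet, limma called 1 of 7 macrophage markers (Trem2, higher in NDKO) and 1 of 8 stellate markers (Acta2, lower). It also called 1 of 8 hepatocyte markers (Cps1, higher) and none of the other cell type lists. Of all tested genes 4.77% were called in this comparison.

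Over the 20 libraries the members that rose with diet followed one another, as a description of libraries that share diet groups: Pearson r of log2(FPKM + 0.1) was 0.955 for Ccnd1 with Cdkn1c and 0.954 with Cdkn2c. After group means were removed, r was 0.621 between Ccnd1 and Ccnd2, the highest among the pairs, and −0.118 between Ccnd1 and Cdkn2c (n = 20 libraries). In the same deviations the mean of the 18 S phase and mitosis genes had r of 0.497 with Ccnd2, 0.121 with Ccnd1 and −0.159 with Cdkn2b.

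Genes with the nearest pattern over the 20 libraries were Maged2 (r 0.991), Dbn1 (0.989) and Klc3 (0.988) for Ccnd1, Ss18 (0.975) and Fam98a (0.974) for Ccnd2, and Flad1 (0.873), Tbc1d8 (0.841) and Slc25a22 (0.83) for Ccnd3. They were Rcc2 (0.955), Htra2 (0.951) and Sars (0.95) for Ccne1, Mtmr6 (0.978), Stk4 (0.977) and Cstf2 (0.976) for Cdkn1b, and Cyth3 (0.983), Clmp (0.98) and Tbx20 (0.98) for Cdkn1c. BC022687 (0.955), Smoc2 (0.948) and A4galt (0.943) were nearest to Cdkn2b, and Hvcn1 (0.984), Slc6a8 (0.983) and Cldn6 (0.983) to Cdkn2c. In deviations from group means the first genes were Sema6a for Ccnd1 (0.822), Tril for Ccnd2 (0.799), Snx33 for Ccnd3 (0.839), Krtcap2 for Ccne1 (0.765), Abca9 for Cdkn1b (0.847), Tcf4 for Cdkn1c (0.784), Khk for Cdkn2b (0.797) and Fbxl8 for Cdkn2c (0.799). The libraries share depth and composition, and r is given without a test.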

How the data were processed

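The authors sequenced poly(A) RNA as paired reads with a directional kit and processed the reads with QuickRNASeq, and the submitters' processing notes name STAR 2.5.2 and featureCounts of Subread 1.5.1. The notes name GRCh38, whereas the coordinates in the deposited table are those of GRCm38. The deposited values are FPKM, with no further normalization between libraries. Fragments per gene and library totals were recovered from FPKM and gene length, with at least 99.975% of the values that could be checked within 0.1 of a whole number. Counting intervals and floors cover counting error only. No 2 libraries of a group were copies (chi-square per degree of freedom at least 12.1 over 40 pairs).

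The test was limma (version 3.58.1, R version 4.3.3; eBayes with trend) on log2(FPKM + 0.1) for the 14524 genes that exceeded 0.5 FPKM in 5 or more libraries, all 20 libraries in 1 fit with a mean for each group. FDR is the two-sided Benjamini-Hochberg value over all tested genes. The fit was also run on simulated counts in which few genes differed. The diet comparisons here differ from that setting, so the run does not bear on the scaling of the libraries. Labels do not state litters or cages, so p-values measure the spread between these mice as labelled.

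The members, gene lists, tests and thresholds were chosen with earlier results of these data known. Named genes are all members, Thbs1, mt-Tg and mt-Tr, at most the 4 called genes of a list with the lowest FDR in a diet comparison, those called between genotypes, and the 3 genes nearest to each tested member; exceptions are stated, and a few genes that this rule selects are not reported here. Mcm5 is the fifth of 5 called and was named after its values were seen, as were Ccnd3-ps, Bysl, Oraov1, Ints8, Gm44732, Gm43126 and 9330179D12Rik, named for shared sequence. Itgam, Trem2 and Skp2, named for the filter, and Cd5l, named beside Clec4f, were also chosen after their values were seen. Tables were made with pandas 2.3.3 and numpy 2.4.6 under Python 3.11.15, and figures with matplotlib 3.10.9.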

Additional observations from a re-analysis of the deposited data

Results flagged for a closer look

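In 3 of the 40 groups of 5 libraries (10 genes in 4 groups), 1 library stood away from the other 4 by more than Dixon's 95% limit of 0.71 of the group's range, where chance alone flags about 1 group in 20. Cdkn1b was at 5.46 FPKM in NDKO library 1, above the other NDKO libraries at 4.525 to 4.714 FPKM, and this library still lay below the lowest NDWT library. Cdkn2a was at 0.367 FPKM in NDWT library 1, from 10 fragments, while the other NDWT libraries had 0 to 2. Cdkn2b was at 0.09 FPKM in NDKO library 4, from 2 fragments, while the other NDKO libraries had 4 or 5.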

How the results depend on the processing

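Each member's differences and each count of calls were recomputed under 13 alternatives and with each of the 20 libraries left out. The 7 diet calls, all higher, became 4 to 8 higher calls in WT and 5 to 9 in TSP-1 null mice, with Ccnd3 called lower under quantile normalization in both genotypes and under median of ratios and with no fold change threshold in the null mice. The number called was 7 in every fit with a library left out. On the control diet, the 2 genotype calls became 0 with a pseudocount of 1, 4 with no fold change threshold (3 lower, 1 higher), and 1 with median of ratios scaling, with quantile normalization, with only the 2 groups compared, with the replicate block and with limma voom on recovered fragments, and 1 to 2 with a library left out; Ccnd1 is the call lost, and with a pseudocount of 1 Ccnd2 also missed the fold threshold (log2FC −0.52). With a pseudocount of 1, Cdkn2b (0.51 in WT, 0.48 in TSP-1 null mice) and Ccne1 in WT (0.48) were also not called, and under quantile normalization Ccne1 in WT (0.07) and Cdkn2b (0.37 and 0.18) were not.

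Signs changed only for differences of at most 0.15 in size as reported. Ccnd3 between diets in WT mice became −0.518 under median of ratios and −0.651 under quantile normalization, and ranged from −0.012 to 0.075 with a library left out. Between genotypes on CDAHFD, Cdkn1c became 0.043 and 0.048 under the same scalings and Cdkn2c 0.006 under median of ratios, and with a library left out Ccnd1 ranged from −0.018 to 0.239, Cdkn1c from −0.149 to 0.048 and Cdkn2b from 0 to 0.202. The cause was not tested.

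Label numbers showed no clear pairing of the mice, and these correlations cannot exclude a weak one. The median r was 0.0202 for same-numbered libraries of different groups and −0.000192 over 120 pairs of other numbers. Deviations of same-numbered libraries of different groups had r of −0.133 to 0.0812 over 30 pairs, 0 of them above 0.1, against 3 of the 120 other pairs. Of 20 libraries, 6 correlated best with their own number, and how many would do so by chance was not computed. With the replicate block, the Ccnd1 call on the control diet had a limma FDR of 0.0514, and no other call of a member changed. Depth limits Ccne1, Ccne2, Cdkn2a and Cdkn2b, whose control diet libraries held 0 to 36 fragments.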
